A study of Mus musculus with 10 samples.

Results

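Chromatin accessibility at the genes of the NF-kB subunits and of their inhibitors was examined in regulatory T cells (Tregs) with and without Vps34, the lipid kinase that Pik3c3 encodes. The subunit genes were Nfkb1, Nfkb2, Rel, Rela and Relb, and the inhibitor genes were Nfkbia, Nfkbie, Nfkbiz and Tnfaip3. Every peak in the body of these 9 genes or within 10 kb of it on GRCm38 was taken, whatever its values, which gave 83 of the 97385 peaks measured. Of these, 52 lay at subunit genes (Nfkb1 32, Nfkb2 7, Rel 7, Rela 3 and Relb 3) and 31 at inhibitor genes (Nfkbia 6, Nfkbie 8, Nfkbiz 9 and Tnfaip3 8). All 83 passed the filter on low counts. Peaks were assigned by distance, and for 11 of them the nearest transcription start belonged to another gene (6 at Nfkbie, 4 at Nfkb2 and 1 at Relb). Below, peaks are numbered within each gene from the lowest coordinate.

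ATAC-seq, in which the Tn5 transposase cuts open DNA, was run on CD4+ Tregs sorted by a YFP reporter of Foxp3 out of 2 organs, spleen and lung, of mice aged 10 days. Spleen gave 2 control and 4 Vps34-deficient libraries, and lung gave 2 of either genotype. Vps34-deficient mice were Foxp3-Cre Pik3c3 fl/fl, and controls also carried Foxp3-Cre, with Pik3c3 +/+ or +/fl, so that some controls may have had 1 floxed copy. Cre was expressed from Foxp3 in every group, which limits the deletion to cells that have turned on this gene. Nothing in the labels says that replicates were separate animals, and p-values measure only the spread between these libraries.

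NF-kB is a family of dimeric transcription factors that inhibitor of kB (IkB) proteins hold in the cytoplasm until a receptor signal frees them. Rela, Rel and Relb proteins carry their own activation domains, whereas Nfkb1 and Nfkb2 encode precursors that are processed to the DNA-binding proteins p50 and p52. Nfkbia and Nfkbie encode the cytoplasmic inhibitors IkB-alpha and IkB-epsilon, Nfkbiz encodes a nuclear IkB protein that can act as a coactivator or repressor, and Tnfaip3 encodes A20, a ubiquitin-editing enzyme that shuts signalling off. Several of these genes are themselves NF-kB targets. In Tregs, Rel supports the induction of Foxp3, and Rela and Rel maintain the effector state.

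The stretches of DNA that the results turn on are given first. In each, capitals mark a match to the kB consensus, a 10-base motif bound by NF-kB dimers, or to TGANTCA, the motif of AP-1 dimers, both searched on both strands. The promoters of Nfkbia and Nfkbie are shown because they are textbook NF-kB-controlled promoters of this set, each with 1 kB match, and Nfkbie with 1 AP-1 match besides. They were taken from RefSeq (GRCm38.p6) as the 250 bases before the start, in the direction of the gene, at chr12:55492648-55492897 (minus strand) and chr17:45555450-45555699 (plus strand).
Nfkbia promoter: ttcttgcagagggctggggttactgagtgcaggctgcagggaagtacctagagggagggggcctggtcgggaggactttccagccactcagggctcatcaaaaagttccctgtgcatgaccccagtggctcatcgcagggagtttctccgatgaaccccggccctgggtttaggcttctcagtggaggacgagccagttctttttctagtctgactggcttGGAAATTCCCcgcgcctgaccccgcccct
Nfkbie promoter: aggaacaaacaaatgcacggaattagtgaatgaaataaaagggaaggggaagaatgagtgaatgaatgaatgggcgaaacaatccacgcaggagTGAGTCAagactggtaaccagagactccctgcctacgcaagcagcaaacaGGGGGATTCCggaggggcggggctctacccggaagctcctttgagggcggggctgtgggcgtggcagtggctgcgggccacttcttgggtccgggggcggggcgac

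The next stretches come from peaks named below for their genotype effect and are written on the plus strand of GRCm38. Nfkb1 peak 1 (stretch chr3:135579320-135579619, past the end of the gene) holds 2 AP-1 matches, Nfkb1 peak 11 (chr3:135604692-135604991, intron) holds 1, Nfkb1 peak 20 (chr3:135640261-135640560, intron) holds 1 kB match, and Rel peak 2 (chr11:23754310-23754609, intron) holds 3 overlapping kB matches in a single run of 12 bases.
Nfkb1 peak 1: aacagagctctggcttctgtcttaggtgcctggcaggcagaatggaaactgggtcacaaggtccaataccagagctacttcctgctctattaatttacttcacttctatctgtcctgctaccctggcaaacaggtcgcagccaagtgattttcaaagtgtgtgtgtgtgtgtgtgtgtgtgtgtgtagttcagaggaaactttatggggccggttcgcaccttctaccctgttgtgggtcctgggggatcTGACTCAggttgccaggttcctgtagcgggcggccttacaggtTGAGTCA
Nfkb1 peak 11: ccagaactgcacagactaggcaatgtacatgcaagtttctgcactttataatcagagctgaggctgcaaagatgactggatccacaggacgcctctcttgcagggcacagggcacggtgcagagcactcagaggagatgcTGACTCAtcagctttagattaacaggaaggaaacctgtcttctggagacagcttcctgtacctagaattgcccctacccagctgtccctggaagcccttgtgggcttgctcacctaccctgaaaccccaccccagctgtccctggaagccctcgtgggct
Nfkb1 peak 20: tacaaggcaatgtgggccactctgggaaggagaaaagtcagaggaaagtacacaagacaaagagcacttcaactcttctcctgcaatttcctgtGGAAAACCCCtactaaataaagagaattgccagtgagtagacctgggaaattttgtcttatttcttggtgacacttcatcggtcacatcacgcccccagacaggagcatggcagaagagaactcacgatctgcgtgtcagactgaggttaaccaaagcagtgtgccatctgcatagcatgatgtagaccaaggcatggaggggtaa
Rel peak 2: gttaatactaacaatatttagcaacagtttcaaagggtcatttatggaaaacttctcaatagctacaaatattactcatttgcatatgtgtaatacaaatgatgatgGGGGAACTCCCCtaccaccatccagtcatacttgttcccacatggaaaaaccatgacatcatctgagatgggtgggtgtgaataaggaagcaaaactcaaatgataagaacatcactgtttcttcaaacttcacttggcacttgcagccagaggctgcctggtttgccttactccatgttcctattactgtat

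The last pair comes from the peaks that differed most clearly between lung and spleen in each direction among the inhibitor genes. Nfkbiz peak 9 (stretch chr16:55847529-55847828, plus strand) holds 1 AP-1 match, and Tnfaip3 peak 5 (chr10:19000585-19000778, plus strand) holds neither motif.
Nfkbiz peak 9: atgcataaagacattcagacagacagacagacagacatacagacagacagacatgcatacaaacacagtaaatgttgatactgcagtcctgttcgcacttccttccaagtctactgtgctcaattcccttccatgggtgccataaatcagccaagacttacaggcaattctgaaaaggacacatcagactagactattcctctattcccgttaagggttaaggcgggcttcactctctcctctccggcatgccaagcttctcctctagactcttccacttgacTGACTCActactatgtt
Tnfaip3 peak 5: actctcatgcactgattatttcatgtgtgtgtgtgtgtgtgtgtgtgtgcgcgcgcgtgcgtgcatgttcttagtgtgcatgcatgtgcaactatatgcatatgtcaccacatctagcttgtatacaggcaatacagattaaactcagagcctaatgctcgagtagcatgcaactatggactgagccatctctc

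A kB match lay in 23 of the 83 peaks (27.7%), against 12% of all peaks, and an AP-1 match in 21 (25.3%), against 16%. The peaks of the set were wider (median 421 bp, against 327 bp), which raises such shares. In the central 300 bases of peaks at least that wide, a kB match lay in 13 of 64 (20.3%), against 10.1% of all, and an AP-1 match in 12 (18.8%), against 13.4%. By symbol, 6 of the 9 genes matched RefSeq promoters, with 9 entries. Of these, 7 held a kB match (77.8%) and 3 an AP-1 match (33.3%), whereas 7.25% and 6.75% of all 32851 promoter entries did. A match is a description of the letters and does not show that a factor was bound.

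Library totals ran from 9405823 to 22439699 counts, and levels are given as CPM, the count scaled to the library total. The Treg identity of the cells was visible at the Foxp3 promoter, which was open in all 10 libraries at 64.2 to 89.1 CPM. The 6 peaks of Pik3c3 summed to 73.4 to 78.5 CPM in spleen control and 78.1 to 83.2 CPM in spleen Vps34-deficient libraries, and to 66.9 to 71.0 CPM in lung control and 72.0 to 77.7 CPM in lung Vps34-deficient libraries, both of which lay above both lung controls. These sums do not read the deletion and so do not check the genotype labels. Of other cell types, the B cell genes Cd79a and Ms4a1, the myeloid genes Lyz2, Csf1r and Adgre1, the epithelial genes Sftpc and Sftpb, the endothelial genes Tek and Emcn and the NK cell genes Ncr1 and Klrb1c had no promoter peak. Other markers of these lists had one, in B cells 2 of 6 (Pax5 at 13.2 to 19.1 CPM and Cd79b), in epithelium 3 of 5 (Epcam at 16.8 to 24.8 CPM, Cdh1 and Nkx2-1) and in endothelium 3 of 5 (Pecam1 at 24.0 to 29.7 CPM, Kdr and Cdh5). Summed over each list, these came to 16.8 to 22.7, 25.1 to 35.5 and 28.8 to 37.3 CPM over the 10 libraries. Nkx2-1 was at 1.3 to 2.12 CPM in lung and 0.361 to 1.11 CPM in spleen libraries. Cdh5 was at 1.13 to 3.39 CPM in lung and 0.181 to 1.07 CPM in spleen libraries. Cdh1 was lower in lung, at 5.93 to 6.63 CPM against 6.85 to 9.89 CPM, and for Epcam, Pecam1 and Kdr the tissues overlapped. The part of these differences in the tissue effects was not tested.

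At these genes 2 lung libraries stood apart, in opposite directions. Lung control replicate 2 had the highest CPM of the 10 libraries at 42 of the 83 peaks (50.6%), whereas it was highest at 12.5% of all peaks, and it had the highest summed level for 7 of the 9 genes. Lung Vps34-deficient replicate 2 had the lowest level at 22 of the 83 peaks, against 15.2% of all peaks, and for 6 of the 9 genes. The genotype effect in lung and the tissue effect in control share the lung control libraries, and the main results of both are therefore given with and without replicate 2. At the promoter peaks of the 6 Treg and T cell markers, too, lung control replicate 2 was the highest and lung Vps34-deficient replicate 2 the lowest lung library, with a summed level of 257.0 CPM in lung control replicate 2, 205.0 CPM in lung control replicate 1, 226.3 CPM in lung Vps34-deficient replicate 1 and 195.4 CPM in lung Vps34-deficient replicate 2. Foxp3 alone was at 85.2, 64.2, 73.6 and 64.8 CPM in the same order. Promoter peaks held 50.0% of the counts of lung control replicate 2 and 47.5% to 48.1% in the other 3 lung libraries. The part of these differences in the results was not tested.

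Summed over the peaks of each gene, the levels of most members lay close together in all groups (plot of summed levels by library). For Nfkb1 they were 439.5 and 432.8 CPM in spleen control, 441.5, 428.0, 444.4 and 439.2 CPM in spleen Vps34-deficient, 449.3 and 539.0 CPM in lung control, and 417.7 and 367.9 CPM in lung Vps34-deficient libraries. In lung, both Vps34-deficient libraries lay below both controls, and in spleen the groups overlapped. For Rel the levels were 111.6 and 124.7 CPM in spleen control, 118.6, 117.0, 118.6 and 119.7 CPM in spleen Vps34-deficient, 106.4 and 134.8 CPM in lung control, and 102.5 and 99.4 CPM in lung Vps34-deficient libraries. Rel thus had the same order of groups in lung, with a smaller gap and with lung control replicate 2 alone above all spleen libraries. Rela, the gene of p65, gave 27.6 and 38.4 CPM in lung control against 27.0 and 25.6 CPM in lung Vps34-deficient libraries, and the spleen libraries spanned 27.5 to 35.1 CPM.

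**Figure D1:**
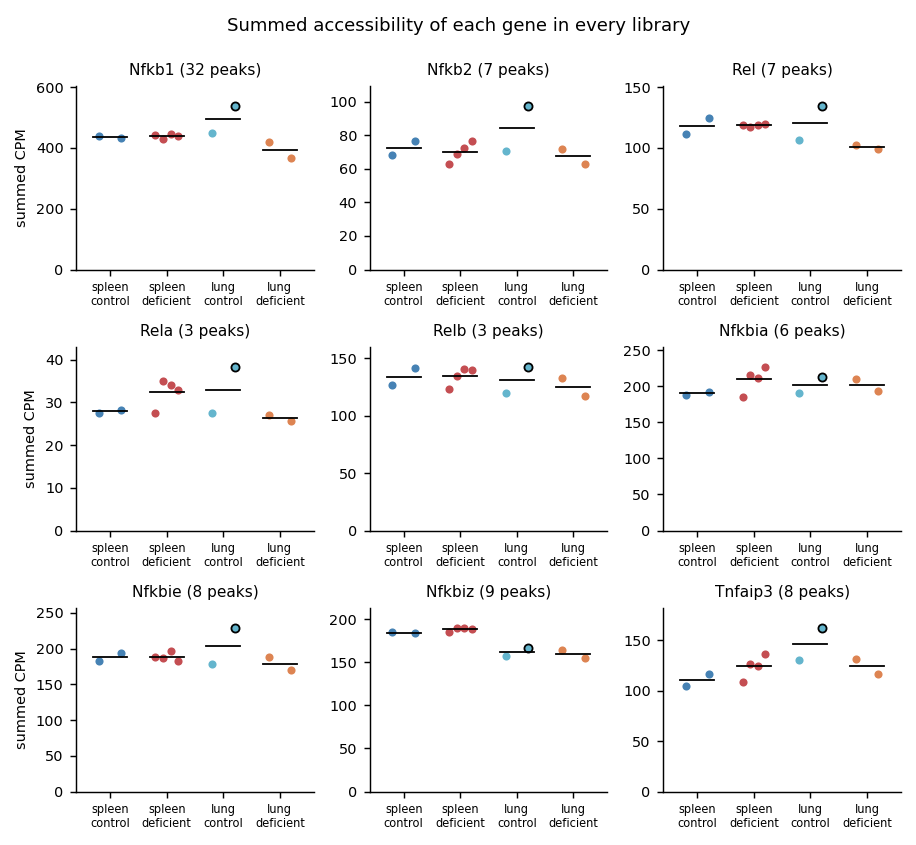
Accessibility summed over the peaks of each NF-kB subunit or inhibitor gene (CPM, axis from 0), 1 point per library in 4 groups, with a black bar at each group mean and a black outline around lung control replicate 2. For Nfkb1 the lung Vps34-deficient libraries (417.7 and 367.9 CPM) lie below both lung controls (449.3 and 539.0 CPM), and the outlined library is the highest of all 10 for 7 of the 9 genes.

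By edgeR's quasi-likelihood test, adjusted after Benjamini and Hochberg over 17619 genes, Nfkb1 was the only member called in the genotype effect in lung, at a log2 fold change of -0.35 (SE 0.0854, adjusted p = 0.0304), where 3.84% of all genes were called. The fold change was negative for all 9 members, with a median of -0.27 beside -0.05 over all genes, and 5 had an unadjusted p below 0.05. The Nfkb1 value without lung control replicate 2 was -0.17 (edgeR, adjusted p = 0.378), and this call was also lost without either lung Vps34-deficient library, either spleen control library or spleen Vps34-deficient replicate 4. Without lung control replicate 1, in contrast, more members were called lower. That fit keeps a single lung control, and the share of all genes called in it is not given, so no count is read from it. Nfkbia and Nfkbiz differed least in lung, at -0.03 (SE 0.094) and -0.05 (SE 0.0708). In spleen 0 of the 9 members were called or had an unadjusted p below 0.05 (0.25% of all genes called), and their median was 0.01. Averaged over tissues 0 members were called by edgeR, by DESeq2 or at an unadjusted p below 0.05, where 5.78% of all genes were called.

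At single peaks, loss of Vps34 went with lower accessibility in lung Tregs at 10 of the 83 peaks and with higher accessibility at 0. A peak was called where the adjusted p was under 0.05 and the log2 fold change exceeded 0.5 in size. The 10 peaks are 12.0% of the set, whereas 3.74% of all tested peaks were called lower and 1.22% higher. Of the 10, 6 lay at Nfkb1, 1 each at Nfkb2 and Rel, and 2 at Nfkbie, so that 8 of 52 subunit peaks (15.4%) and 2 of 31 inhibitor peaks (6.45%) were called. Rela, Relb, Nfkbia, Nfkbiz and Tnfaip3 had no called peak. The median log2 fold change in lung was -0.27 over the 83 peaks and 0.02 over all tested peaks, and 63 of 83 (75.9%) were negative, against 48.2% of all. Both Vps34-deficient lung libraries lay below both controls at 36 peaks (43.4%), against 22.0% of all peaks, and above both at 9, against 23.8%. Without Nfkb1, 4 of the other 51 peaks were called (7.84%) and their median was -0.14.

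These counts rested on the lung libraries that stood apart. Without lung control replicate 2 the median over the 83 peaks was -0.03, 46 were negative and 0 were called, where the median of all peaks was 0.05 and 1.08% of them were called lower. Without lung Vps34-deficient replicate 2 the median was -0.12 and 0 were called (all peaks 0.08, with 1.9% called lower), and without lung Vps34-deficient replicate 1 it was -0.27 with 2 called (all peaks 0.09, with 1.41% called lower). Without lung control replicate 1 the median was -0.34 and 14 were called (all peaks 0.14, with 4.08% called lower), and without either spleen control library, which share the estimate of spread, 5 were called. Promoter peaks of myeloid marker genes (4 of 7 with a peak, among them Spi1 and Cebpa) were also lower in Vps34-deficient libraries, with a summed level of 42.6 to 44.7 CPM in spleen control, 30.5 to 37.5 CPM in spleen Vps34-deficient, 49.1 to 54.3 CPM in lung control and 31.8 to 32.6 CPM in lung Vps34-deficient libraries. Those of CD8 and NK cell markers (3 of 5 with a peak, Ncr1 and Klrb1c without) were at 23.6 to 27.6 CPM in lung control and 33.0 to 39.6 CPM in lung Vps34-deficient libraries. Among these, Cd8a was at 9.53 CPM in lung Vps34-deficient replicate 2 and at 1.49 to 4.06 CPM in the other 9 libraries. Their part in the result was not tested. In bulk samples, fewer cells with an open site and less opening per cell cannot be told apart.

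**Figure D2:**
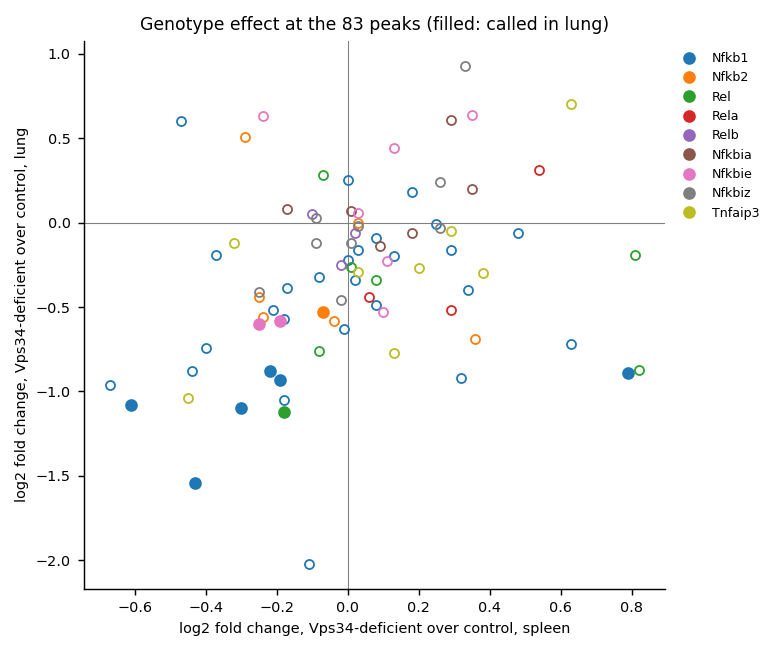
Log2 fold change of Vps34-deficient over control at each of the 83 peaks, in spleen (x axis) and in lung (y axis), coloured by gene, with filled points for the 10 peaks called in lung. Most points lie below 0 on the lung axis (63 of 83) and are spread on both sides of 0 on the spleen axis (38 of 83 negative); all filled points are negative in lung, and 1 of them, Nfkb1 peak 20, lies far to the right in spleen.

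Nfkb1 held most of the called peaks. Peak 1 (chr3:135579175-135579706), 112.1 kb from the start and past the end of the gene, was at 10.4 and 13.7 CPM in lung control and 6.33 and 5.08 CPM in lung Vps34-deficient libraries. In spleen it was at 11.4 and 11.8 CPM in control and 11.1, 8.2, 9.93 and 8.33 CPM in Vps34-deficient libraries. Groups did not overlap in either tissue, and the log2 fold change was -1.10 in lung (SE 0.24, adjusted p = 0.00719, edgeR) and -0.30 in spleen (SE 0.188, adjusted p = 0.503). The lung call was lost without lung control replicate 2 (-0.84) or lung Vps34-deficient replicate 2 (-0.88). Peak 5 (chr3:135590593-135590837, intron) was at 6.15 and 5.65 CPM in spleen control, 2.78, 5.14, 3.2 and 4.31 CPM in spleen Vps34-deficient, 7.65 and 12.3 CPM in lung control, and 5.04 and 4.66 CPM in lung Vps34-deficient libraries. All 6 Vps34-deficient libraries thus lay below all 4 controls. The log2 fold change of peak 5 was -1.08 in lung (SE 0.302, adjusted p = 0.0374) and -0.81 averaged over tissues (SE 0.2, adjusted p = 0.0115). The lung call was lost without lung control replicate 2 (-0.63), either lung Vps34-deficient library or either spleen control library. The averaged call was kept in each of 19 alternatives, among them leaving out any of the 10 libraries, with values from -0.94 to -0.65 and an adjusted p of at most 0.0499.

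Peaks 9 and 11, a coding exon and an intron 88.6 and 86.7 kb into Nfkb1, were higher in lung control than in every other group. Peak 9 (chr3:135602804-135603131) was at 17.2 and 24.6 CPM in lung control and 10.9 and 11.6 CPM in lung Vps34-deficient libraries, and its spleen libraries spanned 9.88 to 15.4 CPM. Peak 11 (chr3:135604673-135605010) was at 18.5 and 22.8 CPM in lung control and 12.7 and 10.2 CPM in lung Vps34-deficient libraries, with 10.8 to 13.2 CPM in spleen. The lung fold changes were -0.93 (SE 0.227, adjusted p = 0.0164) and -0.88 (SE 0.193, adjusted p = 0.00775) on the log2 scale. Neither was called without lung control replicate 2, at -0.59 and -0.67, nor without lung Vps34-deficient replicate 2, at -0.89 and -0.65, and peak 9 was also not called without lung Vps34-deficient replicate 1 (-0.80).

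Peak 23 (chr3:135658624-135659080, intron, 32.7 kb from the start) had the largest fold change among the called peaks of the set, at -1.54 in lung (SE 0.355, adjusted p = 0.0105), from 5.32 and 6.07 CPM in control to 1.87 and 2.12 CPM in Vps34-deficient libraries. In spleen it was at 4.01 and 2.89 CPM in control and 1.81, 2.69, 3.16 and 2.58 CPM in Vps34-deficient libraries, which overlapped. It kept a value between -1.59 and -1.38 in lung in 20 alternatives and was called in 16 of them. Without either lung Vps34-deficient library or lung control replicate 2 it was not called, nor in the lung libraries fitted alone.

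Nfkb1 peak 20 (chr3:135640184-135640637, intron), which holds the kB match printed above, had fold changes of opposite sign in the tissues. It was at 5.88 and 6.06 CPM in spleen control and 11.2, 9.17, 10.2 and 10.6 CPM in spleen Vps34-deficient libraries, and at 12.0 and 20.5 CPM in lung control and 10.2 and 7.62 CPM in lung Vps34-deficient libraries. In spleen every Vps34-deficient library lay above both controls, whereas in lung both lay below. The log2 fold change was 0.79 in spleen (SE 0.215), where it missed the threshold (adjusted p = 0.0652, edgeR), and -0.89 in lung (SE 0.242, adjusted p = 0.0308). The difference between these effects, the interaction, was -1.68 (SE 0.324), with an adjusted p of 0.201 in edgeR and 0.021 in DESeq2. The lung value without lung control replicate 2 was -0.40 and not called, and the call was also lost without either lung Vps34-deficient library or either spleen control library.

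Along Nfkb1, the lung fold changes were lower toward the end of the gene (plot of genotype effect by distance). Distances are from the outermost start of the gene. Between 80 and 120 kb lies another annotated Nfkb1 start, 5 bp from the centre of peak 13. Peaks 9 and 11 lie 5303 and 3429 bp from it. The 10 peaks from 10 kb before to 40 kb after the start had a median of -0.18 in lung, and 1 was called. The 8 peaks at 40 to 80 kb had a median of -0.42 with 1 called, and the 14 peaks at 80 to 120 kb had a median of -0.81 with 4 called and 13 negative. In spleen the medians of these bins were -0.09, 0.21 and -0.18. When lung control replicate 2 was left out, the lung medians were -0.01, -0.13 and -0.49, 0 peaks were called, and 13 of the 14 peaks in the last bin were still negative. When lung Vps34-deficient replicate 2 was left out they were -0.04, -0.20 and -0.60, again with 0 called. When lung Vps34-deficient replicate 1 was left out they were -0.17, -0.72 and -0.84, with 2 called, both in the last bin, and when lung control replicate 1 was left out they were -0.11, -0.51 and -0.79, with 1, 1 and 6 called. The bins were drawn after the values were seen and neighbouring peaks share their gene and libraries, so no test is given. The promoter peak of Nfkb1 (peak 31, chr3:135690814-135691786) was at 56.2 to 59.1 CPM in spleen control, 54.9 to 62.2 CPM in spleen Vps34-deficient, 60.4 and 67.5 CPM in lung control, and 58.5 and 57.8 CPM in lung Vps34-deficient libraries. Its lung fold change was -0.16 (SE 0.104, adjusted p = 0.396), and -0.03 without lung control replicate 2.

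**Figure D3:**
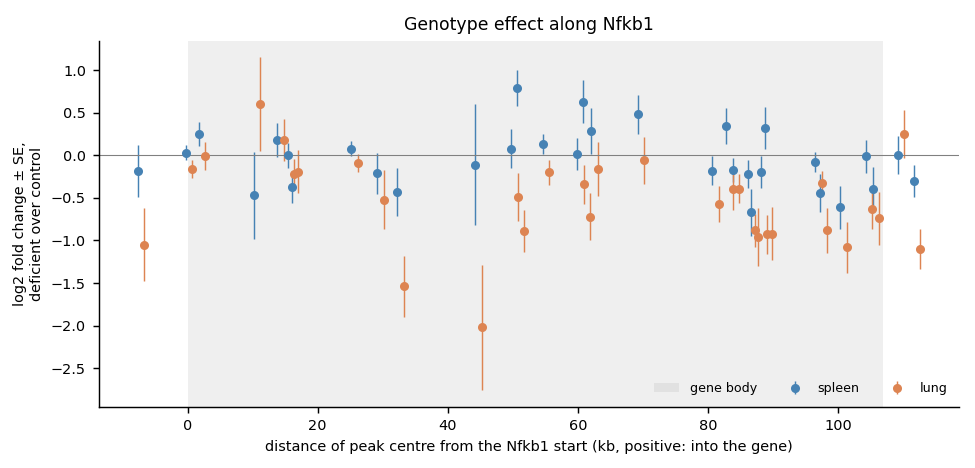
Log2 fold change of Vps34-deficient over control (bars, SE) at the 32 Nfkb1 peaks, against the distance of the peak from the gene's start in kb, for spleen and lung, drawn slightly apart so that both can be seen; the grey area is the gene body. Lung points lie mostly below 0 and between -0.3 and -1.1 for most peaks past 80 kb, and spleen points lie around 0.

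Averaged over tissues, 5 of the 83 peaks were called lower and 0 higher in Vps34-deficient Tregs (6.02%, where 4.05% of all peaks were called lower and 3.52% higher). All 5 lay at Nfkb1, and they were peaks 1 (log2 fold change -0.62), 5 (-0.81), 6 (-0.62), 10 (-0.79) and 23 (-0.87). Without lung control replicate 2 peak 5 alone was called, and without lung Vps34-deficient replicates 1 and 2 in turn 3 and 2 peaks were called. Peak 10 (chr3:135604318-135604520, intron, with 1 AP-1 match) was at 4.99 and 5.51 CPM in spleen control, 4.31, 2.69, 3.79 and 2.3 CPM in spleen Vps34-deficient, 4.68 and 8.61 CPM in lung control, and 3.65 and 3.39 CPM in lung Vps34-deficient libraries. Peaks 5 and 10 were the only members where all 6 Vps34-deficient libraries lay below all 4 controls (2.41% of the set, against 3.61% of all peaks), and none had them all above (against 1.45%). In spleen alone 0 of the 83 peaks were called by edgeR, whereas 0.44% of all peaks were called higher and 1.02% lower. There, 7 members had an unadjusted p below 0.05, 1 was called by DESeq2, and the median was 0.01 beside 0.05 over all peaks.

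Outside Nfkb1 the called peaks changed less or rested on fewer libraries. The promoter peak of Nfkb2 (peak 1, chr19:46304256-46305204), the gene of the non-canonical subunit p52, was at 38.1 and 51.1 CPM in lung control and 32.0 and 30.9 CPM in lung Vps34-deficient libraries, with 30.5 to 40.4 CPM in spleen. Its lung fold change was -0.53 (SE 0.151, adjusted p = 0.0394) and close to the fold threshold, and it was called in 8 of 20 alternatives. It was lost without lung control replicate 2 (-0.25), either lung Vps34-deficient library, either spleen control library or spleen Vps34-deficient replicate 2. Rel peak 2 (chr11:23754009-23754910, intron), which holds the overlapping kB matches, was at 4.89 and 10.7 CPM in lung control, 4.22 and 3.18 CPM in lung Vps34-deficient and 5.96 to 8.95 CPM in spleen libraries. The lung controls lay on either side of the spleen libraries, the fold change was -1.12 (SE 0.325, adjusted p = 0.0442), and without lung control replicate 2 it was -0.37. This call was also lost without either lung Vps34-deficient library, either spleen control library or spleen Vps34-deficient replicate 2 or 4.

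Both called peaks at the IkB-epsilon gene Nfkbie were nearer to the start of another gene. Nfkbie peak 4 (chr17:45552036-45552433, nearest start Tmem151b) was at 19.3 and 24.4 CPM in lung control and 14.8 and 14.6 CPM in lung Vps34-deficient libraries, a log2 fold change of -0.60 (SE 0.173, adjusted p = 0.0415). Nfkbie peak 7 (chr17:45563685-45564693, nearest start Slc35b2) was at 34.9 and 40.4 CPM against 27.1 and 24.1 CPM, a log2 fold change of -0.58 (SE 0.139, adjusted p = 0.0145). At the promoter peak of Nfkbie itself (peak 5, chr17:45555416-45555867), whose sequence is printed above, the lung values were 17.6 and 25.3 CPM in control and 15.8 and 14.6 CPM in Vps34-deficient libraries, and the fold change of -0.53 (SE 0.189, adjusted p = 0.107) was not called and was -0.19 without lung control replicate 2. Neither peak 4 nor peak 7 was called without lung control replicate 2 or without either lung Vps34-deficient library, and peak 4 was also lost without either spleen control library or spleen Vps34-deficient replicate 2 or 4.

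**Figure D4:**
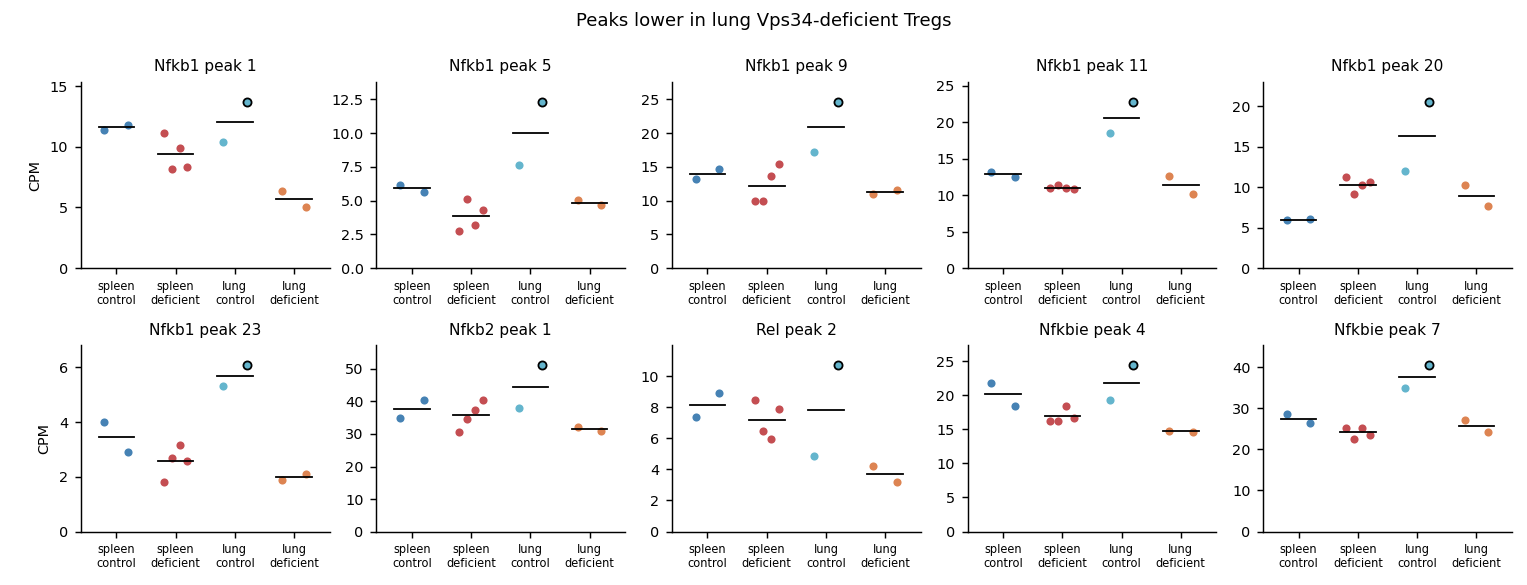
The 10 peaks called in the genotype effect in lung, 1 panel each (CPM, axis from 0), with 1 point per library in 4 groups, a black bar at each group mean and a black outline around lung control replicate 2. In each panel both lung Vps34-deficient points lie below both lung control points, and the outlined point is the highest of all 10 libraries.

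Promoters of the members were open in every library, and in lung nearly all had a negative genotype effect. The 16 promoter peaks had a median of 31.6 CPM, against 6.48 CPM at the other 67, and their log2 fold changes spanned -0.17 to 0.34 in spleen (median 0.03) and -0.76 to 0.0 in lung (median -0.21). In lung 15 of the 16 were negative and 1 was called, and in spleen 4 were negative. Over all peaks, promoter or not, 48.2% were negative in lung. The share over all promoter peaks is not given, so the 15 of 16 cannot be set against other promoters. With lung control replicate 2 left out, 11 of the 16 were negative in lung, the median was -0.03 and 0 were called, and with lung Vps34-deficient replicate 2 left out 9 were negative. The highest was that of Nfkbia (peak 3, chr12:55491694-55492982), the gene of the main feedback inhibitor, at 118.2 and 121.5 CPM in spleen control, 118.9, 141.0, 132.8 and 150.0 CPM in spleen Vps34-deficient, 126.3 and 152.4 CPM in lung control, and 142.5 and 129.3 CPM in lung Vps34-deficient libraries. The groups overlapped in both tissues, at fold changes of 0.18 (SE 0.0898) and -0.06 (SE 0.104). The promoter peak of Relb (peak 3, chr7:19628300-19629587) spanned 91.2 to 109.7 CPM over all libraries, with fold changes of 0.02 (SE 0.0902) and -0.06 (SE 0.106). That of Rel (peak 6, chr11:23770544-23771999) was at 70.5 to 95.1 CPM, and lung control replicate 2 was its highest library. The other 67 peaks had 9 calls in lung. Peaks with a kB match had 4 calls among 23 and a median of -0.26, and those without it 6 among 60 and -0.29.

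At Rela and at the A20 gene Tnfaip3 the lung values were also negative at most peaks, without a call. The promoter peak of Rela (peak 2, chr19:5637051-5638129) was at 14.0 and 24.0 CPM in lung control and 15.8 and 11.4 CPM in lung Vps34-deficient libraries, which overlapped, at -0.52 (SE 0.224, adjusted p = 0.193). The promoter peak of Tnfaip3 (peak 8, chr10:19014402-19015860) was at 62.7 and 74.4 CPM against 58.6 and 55.2 CPM, at -0.29 (SE 0.123, adjusted p = 0.176). The values of these promoter peaks of Rela and Tnfaip3 without lung control replicate 2 were -0.01 and -0.12. Among the inhibitors, the highest lung fold change was at Nfkbiz peak 6, an intronic site, at 0.93 (SE 0.324, adjusted p = 0.0976), from 2.34 and 1.83 CPM to 4.55 and 3.39 CPM. The last peak was named after its value was seen.

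The interaction asks if the effect of genotype depends on the tissue. It was called at 0 of the 83 peaks, as at 0.0% of all peaks by edgeR. At the members 17 had an unadjusted p below 0.05, DESeq2 called 1, and the median was -0.32 beside -0.08 over all peaks, with 66 of 83 negative. Without lung control replicate 2 the median was -0.05 and 45 were negative, and without lung Vps34-deficient replicate 2 it was -0.12 with 51 negative. For the summed levels 0 of 9 members were called, and all 9 values were negative, that of Nfkb1 being -0.36 (SE 0.113, adjusted p = 0.657).

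The tissue effect compared lung with spleen Tregs. Averaged over genotypes, 11 of the 83 peaks were higher in lung (13.3%) and 6 were lower (7.23%), beside 18.4% and 6.51% of all tested peaks, so the set had no larger share of peaks higher in lung than the background. The 11 higher peaks were spread over Nfkb1 (5), Nfkb2 (2), Rela (1) and Tnfaip3 (3), and the 6 lower over Nfkb1 (2), Rel (1), Nfkbiz (2) and Tnfaip3 (1). The averaged higher calls at Nfkb1 peak 5 and Nfkb2 peak 5 were lost without lung control replicate 2 or spleen control replicate 1. Those at Rela peak 1 and Tnfaip3 peak 5 were kept, and the split of the averaged calls without each library is not given. In control Tregs 15 peaks were higher and 3 lower (18.1% and 3.61%, against 11.8% and 3.53% of all), and with library size or median-of-ratios scaling in place of TMM the split was 11 and 6. Without lung control replicate 2 the median in control fell from 0.20 to -0.11, with fewer peaks called higher and more called lower. Fewer peaks were also called in control without either spleen control library. Each of these fits keeps a single library in a group, and the share of all peaks called in them is not given. In Vps34-deficient Tregs 5 were higher and 10 lower (6.02% and 12.0%, against 12.4% and 4.72% of all). Fewer peaks were called there without either lung Vps34-deficient library, spleen control replicate 2 or spleen Vps34-deficient replicate 4. The lower calls at Nfkb1 peak 1 and Rel peaks 2 and 5 were lost without either lung Vps34-deficient library, and the higher call at Tnfaip3 peak 5 was kept. The larger share of lower peaks thus rested on both lung Vps34-deficient libraries. Reads in promoter peaks made up 50.8% to 53.1% of counts in spleen and 47.5% to 50.0% in lung libraries, and the part of this in the result was not tested.

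The clearest tissue difference of the set lay downstream of Tnfaip3. Peak 5 (chr10:19000585-19000778, beyond the end of the gene) was at 0.713 and 0.413 CPM in spleen control, 0.556, 0.367, 0.271 and 0.718 CPM in spleen Vps34-deficient, 3.08 and 4.94 CPM in lung control, and 3.57 and 4.02 CPM in lung Vps34-deficient libraries. Every lung library lay above every spleen library. The log2 fold change was 2.98 (SE 0.322, adjusted p = 1.44e-07, edgeR) averaged over genotypes, 2.87 in control and 3.07 in Vps34-deficient Tregs, and it was called in 19 of 19 alternatives at 2.78 to 3.11. The neighbouring peak 4 was at 0.245 to 1.24 CPM in spleen and at 5.32, 6.35, 3.0 and 2.75 CPM in lung, a fold change of 2.53 (SE 0.333, adjusted p = 2.58e-06), and peak 3 rose by 0.97 (SE 0.203, adjusted p = 0.000643). Peak 1, at the far end of the window, was lower in lung, at 1.06 and 1.55 CPM in control and 2.11 and 2.33 CPM in Vps34-deficient libraries against 3.12 to 6.6 CPM in spleen (-1.17, SE 0.239, adjusted p = 0.000532). Peaks 1, 3 and 4 were named after their values were seen. The summed level of Tnfaip3 was called higher in lung in control (0.49, SE 0.117, adjusted p = 0.0121), where 12.9% of all genes were called, but not without lung control replicate 2 (0.22) or spleen control replicate 1 (0.31). In control, more members were called higher in lung without lung control replicate 1, whereas without replicate 2 the call was in the other direction. Each of these fits keeps a single lung control, and the share of all genes called in them is not given.

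Nfkbiz was lower in lung than in spleen. Peak 9 (chr16:55847222-55848136, 8.8 kb before the start) was at 6.42 and 4.27 CPM in spleen control, 4.59, 4.89, 5.55 and 6.17 CPM in spleen Vps34-deficient, 2.13 and 3.25 CPM in lung control, and 2.11 and 1.91 CPM in lung Vps34-deficient libraries. Its fold change of -1.13 (SE 0.223, adjusted p = 0.000376) was called in 19 of 19 alternatives at -1.35 to -1.03. All 4 lung libraries lay below all 6 spleen libraries at 5 of its 9 peaks, as at 7.84% of all peaks, among them the promoter peak 5 (chr16:55821621-55822703), at 67.8, 73.0, 71.3 and 60.5 CPM in lung and 73.8 to 78.6 CPM in spleen (-0.10, SE 0.0667, adjusted p = 0.299). The summed level of Nfkbiz was 185.2 and 183.5 CPM in spleen control, 185.3, 189.1, 190.2 and 188.4 CPM in spleen Vps34-deficient, 157.5 and 167.0 CPM in lung control, and 164.4 and 154.9 CPM in lung Vps34-deficient libraries. The tissues did not overlap, and the sum was called lower in lung on average (-0.15, SE 0.0462, adjusted p = 0.0199) and in Vps34-deficient Tregs (-0.19, SE 0.0613, adjusted p = 0.046), where 29.4% and 18.0% of all genes were called. The averaged call was lost without spleen control replicate 2 (-0.14), lung control replicate 1 (-0.13) or lung Vps34-deficient replicate 2 (-0.13), and the other without these, lung Vps34-deficient replicate 1 or spleen Vps34-deficient replicate 4 (-0.18 to -0.08). Nfkbiz was the only one of 9 members called in the averaged tissue effect, and Tnfaip3 came next at 0.24 (SE 0.0913, adjusted p = 0.0553).

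At the subunit genes, Rela peak 1 (chr19:5627341-5627553, 10.0 kb before the start) was higher in every lung library, at 4.89, 3.53, 4.06 and 6.56 CPM against 0.98 to 2.69 CPM in spleen (1.37, SE 0.252, adjusted p = 0.000174). Nfkb1 peak 24 (chr3:135661820-135662027, intron) was lower in every lung library, at 3.19, 2.96, 2.76 and 1.48 CPM against 4.83 to 6.68 CPM (-1.14, SE 0.214, adjusted p = 0.000206). Both calls were kept in 19 of 19 alternatives. Nfkb2 peak 5 (chr19:46317287-46317492), whose nearest start is that of Psd, was at 2.13, 3.53, 1.79 and 2.54 CPM in lung libraries, against 1.49 ± 0.224 CPM (SD, n = 2) in spleen control and 1.24 ± 0.237 CPM (SD, n = 4) in spleen Vps34-deficient libraries (0.92, SE 0.292, adjusted p = 0.0189). It was not called without lung control replicate 2 (0.71), lung Vps34-deficient replicate 2 (0.83) or spleen control replicate 1 (0.80). Rel peak 5 (chr11:23770152-23770351, 0.7 kb from the start) was lower by 0.54 on average (log2 fold change -0.54, SE 0.201, adjusted p = 0.0442), and not called without either lung Vps34-deficient library (-0.39 and -0.52) or spleen Vps34-deficient replicate 4 (-0.47). For Relb, Nfkbia and Nfkbie the peak with the smallest p changed by less than the fold threshold, at -0.31, -0.26 and 0.32. Over the set, all lung libraries lay above all spleen libraries at 6 peaks (7.23%, against 7.93% of all peaks) and below them at 10 (12.0%, against 7.84%).

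**Figure D5:**
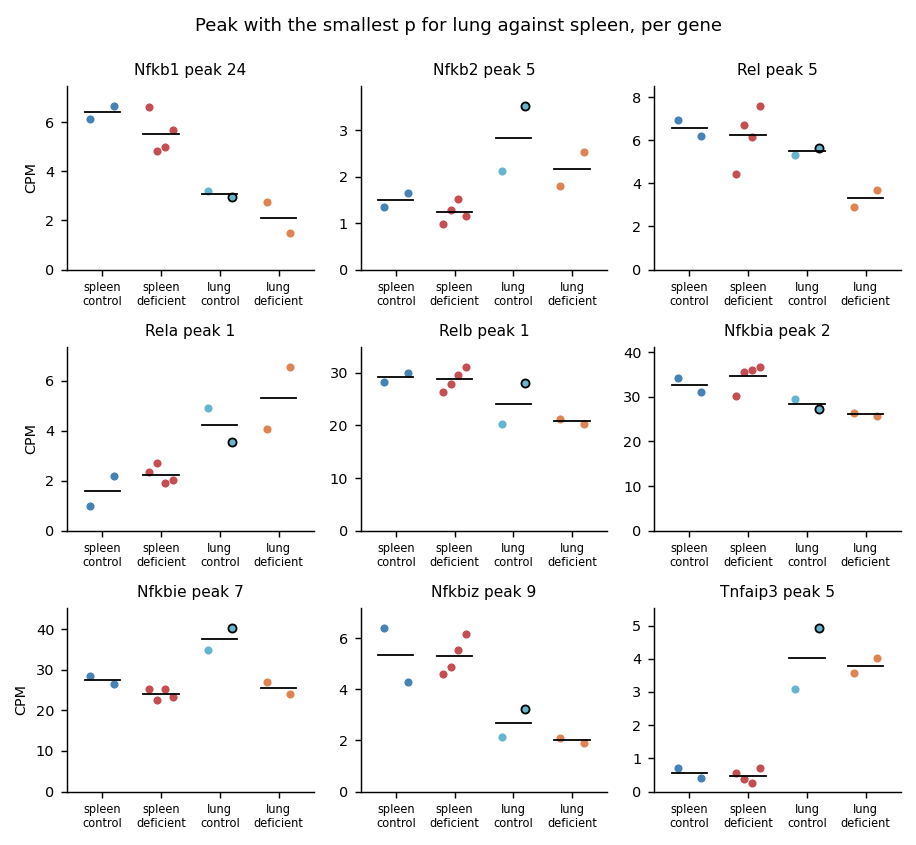
For each gene, the peak with the smallest p for lung against spleen (CPM, axis from 0), with 1 point per library in 4 groups, a black bar at each group mean and a black outline around lung control replicate 2. Tnfaip3 peak 5 and Rela peak 1 are higher in all 4 lung libraries and Nfkb1 peak 24 and Nfkbiz peak 9 lower in all 4, with the outlined library on the side of the other lung libraries.

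Across the 10 libraries, the gene whose summed level was most like that of a member, among 17610 compared, was Aloxe3, a lipoxygenase gene, for Nfkb1 (Pearson r 0.986), the adaptor gene Nck2 for Nfkb2 (0.981), the TNF receptor 2 gene Tnfrsf1b for Rel (0.975), the splicing kinase gene Srpk1 for Rela (0.935) and the predicted gene Gm20661 for Relb (0.983). For the inhibitors it was Ikzf4, a partner of Foxp3, for Nfkbia (0.96), Specc1l for Nfkbie (0.975), the guanylate cyclase gene Gucy2d for Nfkbiz (0.987) and Selplg, which encodes a selectin ligand, for Tnfaip3 (0.965). These are descriptions over 10 libraries that share depth and tissue, chosen as the highest of many.

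Over the other genes of the pathway the share of lower peaks in lung was near the background with all libraries, but not without single lung controls. Of 58 genes in 7 lists by role, 57 had a peak, with 479 peaks in all. In lung 19 of these were called lower (3.97%, beside the 3.74% background) and 6 higher, with a median of -0.09, and in spleen 0 were called. Leaving out lung control replicate 2 gave 1 lower (0.209%, against 1.08% of all peaks) and 3 higher, with a median of 0.06, and leaving out lung control replicate 1 gave 31 lower (6.47%, against 4.08%) and 11 higher. Leaving out lung Vps34-deficient replicate 1 gave 5 lower (1.04%, against 1.41%) and 2 higher, and leaving out lung Vps34-deficient replicate 2 gave 5 lower (1.04%, against 1.9%) and 9 higher. By list, 7 of 85 peaks were lower at receptors that signal to NF-kB (8.24%), 5 of 131 at target genes, 3 of 66 at TRAF and cIAP adaptors, 2 of 58 at antigen receptor adaptors, 2 of 73 at deubiquitinases and their partners, and none at the IKK complex and its activators or at the other IkB genes.

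Among the receptors, 3 of 9 peaks of Il1rl1, the gene of the IL-33 receptor ST2, were lower in lung Vps34-deficient Tregs. The peak with the smallest p fell from 6.61 ± 4.23 CPM to 1.2 ± 0.0941 CPM (SD, n = 2 each), a log2 fold change of -2.51 (SE 0.43, adjusted p = 0.000896). Peaks of the IL-18 receptor gene Il18r1 (-0.85), of Tnfrsf1b (-0.97), of Tnfrsf9, which encodes 4-1BB (-0.56), and of Tnfrsf18, which encodes GITR (-0.91), were also called lower, whereas a peak of the TNF receptor 1 gene Tnfrsf1a was higher (0.91, SE 0.233, adjusted p = 0.0213). Among adaptors, peaks of Traf1 (-1.01), Traf5 (-1.20) and Prkcq (-0.95) were lower, and 1 of the IKK-beta gene Ikbkb was higher (0.69, SE 0.175, adjusted p = 0.0201). The A20 partner genes Tnip1 (-0.52) and Tnip3 (-0.84) had a lower peak each. Of target genes, Cflar (from 5.66 ± 0.782 to 1.82 ± 0.181 CPM, SD, n = 2 each), Il2ra (log2 fold change -0.94) and Bcl2l1 (-0.79) had lower peaks and Bcl2 had 2 higher peaks, the first at 0.97 (SE 0.257, adjusted p = 0.0272). All these values are from edgeR in lung and are the peak with the smallest p of each gene. Prkcq and Tnip3 also had 1 higher peak each. The nearest start was that of Vps13d for the Tnfrsf1b peak and that of Cox4i2 for the Bcl2l1 peak. Of the peaks named here, those of Tnip3 (-0.74) and Bcl2 (1.43) were the only ones still called without lung control replicate 2, but Bcl2 lost its call without each of the other 3 lung libraries and Tnip3 without lung Vps34-deficient replicate 1. The Il1rl1 peak was then at -1.57 (edgeR, adjusted p = 0.0972), and it kept its call without each of the other 3 lung libraries.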

How the data were processed

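ATAC-seq libraries of sorted Tregs were analysed from the table of counts per peak that the authors deposited. Per the study's methods, the authors trimmed and aligned paired reads, removed duplicates, shifted read ends for the Tn5 insertion site, kept nucleosome-free fragments, called peaks with MACS2 in each sample, kept those found in enough replicates and merged them. The submitters' processing notes name MACS2 2.1.0.20150603, Picard 1.65 and cutadapt 1.9. The methods name an older assembly, but all peaks lie within GRCm38 chromosomes and 51.2% of protein-coding gene starts fall in a peak on that build, so GRCm38 (GENCODE) was used. The methods also give the spleen group sizes the other way round, and the labels were followed. Both mates were counted (91.5% to 96.5% of counts are even), so counts overstate independent fragments.

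Counts were filtered with filterByExpr, scaled with TMM and fitted with edgeR 4.0.16 (R 4.3.3) by quasi-likelihood in 1 model with 4 groups, so that groups with 2 libraries share an estimate of the spread, which leaves 97109 peaks. A model with tissue plus genotype gave the averaged effects. P-values were adjusted by Benjamini-Hochberg over all peaks, or over 17619 protein-coding genes for counts summed over the peaks of a gene. The gene-level effects within a tissue or genotype, and the counts and medians of groups of peaks without each lung library, were added after seeing the data. DESeq2 1.42.0 was an alternative. The procedure was tested on simulated data. Promoter peaks lie within 1 kb of a transcription start. Named for each gene were its highest promoter peak, every peak called in a genotype effect, the peak with the smallest p for tissue and the most similar gene. The members and lists were chosen with earlier results of these data known.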

Additional observations from a re-analysis of the deposited data

Results flagged for a closer look

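The promoter peak of Tnfaip3 (peak 8) had an outlying library in the spleen Vps34-deficient group. Replicate 1 was at 51.6 CPM and the other 3 at 62.1 to 62.6 CPM, so that its gap to the nearest took 0.951 of the range of the group, which is past the 95% critical value of Dixon's test for 4 samples. Of 37 values tested this was the only one to pass, and chance flags about 1 in 20.

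Nfkb1 peak 20 had genotype effects of opposite sign in the tissues, with every Vps34-deficient library above every control in spleen and below in lung. The difference between the effects was -1.68 on the log2 scale (SE 0.324) and did not pass the adjustment in edgeR (adjusted p = 0.201). The summed level of Nfkb1 was higher in lung than in spleen in every control library and lower in every Vps34-deficient library. The difference was -0.36 (SE 0.113, adjusted p = 0.657, edgeR). Both results lean on lung control replicate 2, the highest library for each, and the cause was not tested.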

How the results depend on the processing

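Over named results with a call, 612 of 808 values under an alternative kept it, 196 kept the direction without the call and 0 reversed. Of 4288 values for results without a call, 77 became called. With the replicate block (the label number as a term) 4 member peaks were called in the genotype effect in lung in place of 10, 3 in place of 5 on average, and 3 in place of 15 in the tissue effect in Vps34-deficient. Of libraries with the same number, only spleen and lung libraries of the same genotype could share a mouse. These gave correlations of -0.0123 to 0.0369, which do not show a pairing, and the labels leave it open. The replicate block also tied controls to Vps34-deficient libraries, and the tissue effect was not fitted with pairs within a genotype. Chromosome Y counts were high or low alike in each of the 4 pairs of spleen and lung libraries with the same genotype and number. In the genotype effect in spleen 1 peak, against 0, was called with DESeq2, with the chromosome Y covariate or with spleen fitted alone, and DESeq2 called 1 in the interaction. With lung fitted alone 0 were called. The call of the summed level of Nfkb1 in the genotype effect in lung was also lost with the replicate block and with 50 kb, that of Nfkbiz in the tissue effect in Vps34-deficient with DESeq2, the replicate block, the gene body alone and 50 kb, and that of Nfkbiz on average with the replicate block. With a window of 50 kb the counts were 16 for the genotype effect in lung (13 lower and 3 higher) and 9 on average (6 lower and 3 higher). They were 27 for the tissue effect in Vps34-deficient and 29 on average. These tissue counts join both directions, so they do not show whether the split of 5 higher and 10 lower in Vps34-deficient held. With the gene body alone they were 11, 6 and 9 for the tissue effect in control (18), in Vps34-deficient (15) and on average (17). With a log2 fold change above 1 they were 4 and 0 for the genotype effect in lung and on average, and 10, 8 and 8 for tissue in control, in Vps34-deficient and on average. With no fold threshold the average genotype effect gave 8. Summed over genes, the average tissue effect called 2 members, against 1, with DESeq2 or with 50 kb. Leaving out each library in turn gave 0 to 1 (genotype, spleen), 0 to 14 (lung), 1 to 7 (average), 7 to 17, 4 to 17 and 14 to 21 (tissue in control, in Vps34-deficient and on average), 0 to 1 (interaction). For levels summed over genes it gave 0 to 0 (genotype in spleen and on average, interaction), 0 to 5 (genotype in lung and tissue in control) and 0 to 2 (tissue in Vps34-deficient and on average). The smallest lung effect called was -0.53 at a peak and -0.35 for a summed level, with 2 libraries in 3 of the 4 groups. The cause of these changes was not tested.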
